A study of Mus musculus with 4 samples.

Results

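Melanotropes with high immediate-early transcripts are described here: nuclei of the mouse pituitary that carried the transcripts of intermediate-lobe melanotropes together with many copies of genes that cells switch on within minutes of a stimulus. Members were the barcodes with at least 500 genes and under 5% mitochondrial UMIs (unique transcript counts), at least 1 UMI in 3 or more of 8 melanotrope genes (Pax7, Oacyl, Col19a1, Nrg3, Nrg3os, Grik1, Tafa1 and Grm8, with Pax7 or Oacyl among them), and 10 or more UMIs summed over 8 immediate-early genes (Fos, Fosb, Junb, Jun, Ier2, Egr1, Atf3 and Nr4a1). The rule found 250 nuclei. They were part of 2624 nuclei that met the melanotrope condition, called melanotrope-rule nuclei below, and of 35615 nuclei that passed the filters on genes and mitochondrial UMIs. The 2374 melanotrope-rule nuclei with 9 or fewer immediate-early UMIs are called the other melanotrope-rule nuclei.

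The study sequenced nuclei of snap-frozen, wild-type pituitaries. The mice were UM-HET3, a genetically mixed stock made by crossing inbred strains. There were 4 libraries, each from 3 pooled glands: males of 5 months, males of 22 months, females of 5 months and females of 22 months by their labels; no treatment is named in the labels. With 1 library per labelled group, animals cannot be separated within a library and no group has a replicate, so differences between libraries or within 1 library are given with intervals that cover counting error only and with no test.

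Melanotropes process the precursor Pomc into alpha-MSH and related peptides, and dopamine acting on the receptor Drd2 holds their secretion down. Pax7 is the factor that sets melanotrope identity apart from that of corticotropes, the other Pomc-producing cells. Immediate-early genes need no new protein synthesis to be transcribed. Their RNA is short-lived, and many of their products are transcription factors (the Fos and Jun families form AP-1) that act on later genes. Signals through cAMP and calcium reach several of them through CREB, which binds DNA at the cAMP response element.

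Promoter sequence of 3 of the 8 immediate-early genes of the rule is shown. Junb and Fos were taken because they supplied most of the members' immediate-early UMIs. Nr4a1, with 1.87% of these UMIs, was taken because it had the most matches to the core of the cAMP response element. Each is the stretch of 250 bases before the annotated start in RefSeq (GRCm38.p6), 5′ to 3′ on the gene's strand, with each match to TGACG or its reverse complement CGTCA in capitals.
Fos: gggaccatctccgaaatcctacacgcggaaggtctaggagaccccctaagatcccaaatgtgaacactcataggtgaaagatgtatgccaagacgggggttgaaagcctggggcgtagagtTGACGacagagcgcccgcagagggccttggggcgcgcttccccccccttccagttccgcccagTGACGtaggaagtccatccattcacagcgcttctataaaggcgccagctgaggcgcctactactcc
Junb: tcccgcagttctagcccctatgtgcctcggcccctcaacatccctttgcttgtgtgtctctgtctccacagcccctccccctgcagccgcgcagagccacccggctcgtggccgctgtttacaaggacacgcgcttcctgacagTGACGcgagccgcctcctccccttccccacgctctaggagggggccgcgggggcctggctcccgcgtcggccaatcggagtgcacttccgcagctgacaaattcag
Nr4a1: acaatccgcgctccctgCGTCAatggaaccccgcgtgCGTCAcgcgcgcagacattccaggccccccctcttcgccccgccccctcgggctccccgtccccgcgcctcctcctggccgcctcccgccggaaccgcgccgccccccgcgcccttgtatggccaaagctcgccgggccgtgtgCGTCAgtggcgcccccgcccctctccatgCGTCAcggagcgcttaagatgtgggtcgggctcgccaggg
The windows lie at chr12:85473640-85473889 (plus strand) for Fos, chr8:84978749-84978998 (minus strand) for Junb and chr15:101266596-101266845 (plus strand) for Nr4a1. Matches begin at -129 and -66 relative to the start in Fos, at -106 in Junb, and at -233, -213, -69 and -40 in Nr4a1. Of the 8 genes, 6 had a window that was searched, and 5 of these (Fos, Fosb, Junb, Atf3 and Nr4a1) held a match. The Jun window held none of these letters. Of all 32851 RefSeq windows of this length, 17.8% held at least 1 match, 3.90% at least 2 and 0.137% at least 4. Nr4a1 was chosen on its number of matches, so the last share does not measure how unusual it is. A match is a stretch of letters, and no binding was measured.

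Library labels and sex-linked transcripts disagreed in 2 libraries. In the library labelled 5-month females 85.5% of nuclei held a UMI of 1 of 4 Y-linked genes and 0.243% held Xist, and in the library labelled 22-month males 97.5% held Xist and 0.199% a Y-linked UMI. The other libraries matched their labels. In the library labelled 5-month males, which held nearly all members, 86.6% of nuclei had a Y-linked UMI, as had 218 of its 241 members, and 1 member had an Xist UMI. Groups are therefore called by the library's label, and no difference by sex is drawn; if whole libraries were exchanged, the labelled ages of these 2 would be in doubt as well, which was not tested. The libraries held 33328821 to 65773807 UMIs and 7420 to 12066 nuclei that passed. Pairs of libraries shared 14 to 43 barcode sequences, and of the member barcodes of the library labelled 5-month males 1 also occurred among passed barcodes of the library labelled 22-month males and 4 among those of the library labelled 22-month females. Scrublet, which scores likely doublets, called 16.8% to 20.7% of passed nuclei, at a threshold of 0.15.

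Nearly all members came from the library labelled 5-month males. There, 241 of 438 melanotrope-rule nuclei were members (55.0%, exact Clopper-Pearson 95% interval 50.2% to 59.7%). The library labelled 5-month females had 6 of 502 (1.20%, 0.440% to 2.58%), the library labelled 22-month females 2 of 411 (0.487%, 0.0590% to 1.75%) and the library labelled 22-month males 1 of 1273 (0.0786%, 0.00199% to 0.437%). The intervals of the last 3 libraries lay far below that of the library labelled 5-month males, and the interval of the library labelled 22-month females overlapped those of both others. The difference is one between single libraries, so labelled age and pool cannot be told apart.

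The distribution within the library labelled 5-month males was broad. Of its 438 melanotrope-rule nuclei, 63 had 0 immediate-early UMIs, 26 had 1 to 2, 108 had 3 to 9, 149 had 10 to 19 and 92 had 20 to 47. Elsewhere 0 was the commonest value, in 307 of 502 nuclei of the library labelled 5-month females, 856 of 1273 of that labelled 22-month males and 268 of 411 of that labelled 22-month females. The threshold of 10 cut through a continuous range: 18, 18 and 15 nuclei had 7, 8 and 9 UMIs, and 14, 17, 21 and 17 had 10, 11, 12 and 13. Median total UMIs were 3812.5, 3918 and 4711 at 7, 8 and 9 immediate-early UMIs. At 10, 11, 12 and 13 they were 4635.5, 4260, 4303 and 5207.

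**Figure D1:**
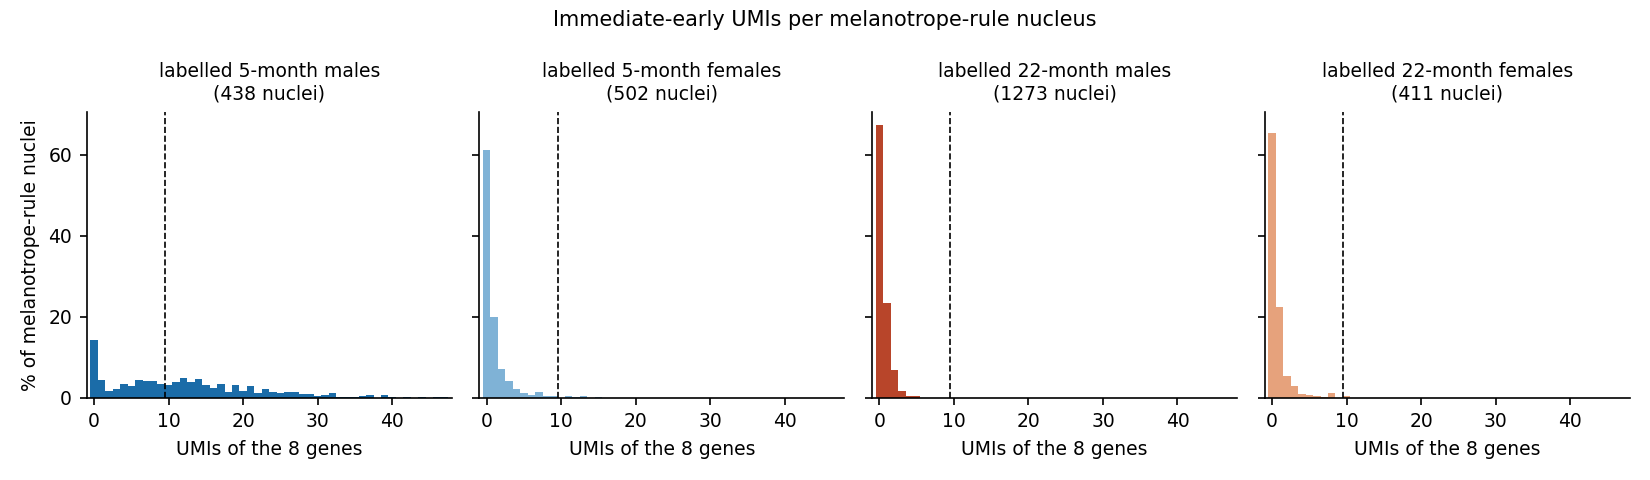
Distribution of immediate-early UMIs per melanotrope-rule nucleus in each library; the x axis is UMIs summed over the 8 genes, the y axis the percent of that library's melanotrope-rule nuclei, and the dashed line the threshold of 10. The library labelled 5-month males spreads from 0 to 47 UMIs with 241 of 438 nuclei right of the line, and the other libraries hold 6, 1 and 2 nuclei there.

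Pomc, which the rule did not use, was far more abundant in members than in nuclei outside the melanotrope rule. In the 241 members of the library labelled 5-month males Pomc UMIs ranged from 83 to 1464 with a median of 312, against a median of 321 in the other melanotrope-rule nuclei and 12 in all other nuclei of the library. A single Pomc UMI says nothing here, since it was seen in 99.96% of the nuclei outside the rule. The 8 melanotrope genes chose these nuclei, so their detection is a description of how members compare with the others and no support for identity. Oacyl, an acyltransferase gene, was seen in 97.9% of members and 96.4% of the others. Pax7 was seen in 75.1% and 67.5%, Nrg3, a neuregulin, in 97.9% and 95.9%, and the kainate receptor gene Grik1 in 91.7% and 79.7%. The remaining markers were level or less often seen in members. Nrg3os was seen in 42.3% and 46.2%, Tafa1 in 46.5% and 49.2%, Col19a1 in 36.5% and 38.1%, and Grm8 in 42.7% and 42.6%. Relative to total UMIs, 2 of the 8 genes were higher in members, and the median log2 ratio over the others was -0.24. Members were somewhat deeper, with a median of 4710 UMIs and 2321 genes against 3965 UMIs and 1999 genes, while the median mitochondrial share was 0.322% and 0.347%. Scrublet called 65 of the 241 members (26.97%) and 40 of the 197 others (20.3%). Without these calls 176 of 333 melanotrope-rule nuclei of the library were members (52.9%), and with a threshold of 0.2% of a nucleus's UMIs in place of 10 UMIs 235 of 438 were (53.7%).

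The 9 members outside that library were all deeper than its median member. The 6 of the library labelled 5-month females had 5174 to 15179 UMIs and 11 to 15 immediate-early UMIs, 5 to 12 of them Junb, and 1 was a Scrublet call. In the library labelled 22-month females both members (11510 and 39917 UMIs, 10 immediate-early UMIs each) were Scrublet calls. The single member of the library labelled 22-month males, also a Scrublet call, had 71613 UMIs, of which 10 were immediate-early and 6 of those Ier2, and its Pomc level of 6856 CPM (counts per 1000000 UMIs) compares with 59700 CPM in the summed counts of members of the library labelled 5-month males.

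The immediate-early genes themselves chose the members, so their levels are a description. Junb, an AP-1 subunit, gave 46.0% of the members' immediate-early UMIs, Fos, its dimer partner, 22.3%, and Ier2, an immediate-early nuclear protein, 12.4%. In members Junb stood at 1442 CPM (1381 to 1505, exact Poisson 95% interval), against 264 CPM in the other melanotrope-rule nuclei of the library and 141 CPM in its remaining nuclei. Fos stood at 700 CPM in members, 237 CPM in the others and 37.7 CPM in the remaining nuclei. Members had a median of 8 Junb UMIs (at most 28) and 4 Fos UMIs (at most 16), whereas both medians were 0 in the others.

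The other 6 genes were less evenly spread over the members. Fosb, a second Fos-family gene, was seen in 65.6% of members and 22.8% of others, and Egr1, a zinc-finger factor, in 61.0% and 15.7%. Ier2 was seen in 49.8% and 17.8%, Nr4a1, an orphan nuclear receptor, in 24.9% and 9.64%, and Jun in 21.6% and 5.58%. Atf3, a stress-linked ATF/CREB-family factor, had 26 UMIs in 14 members, up to 7 in 1 nucleus, and 2 UMIs in the others. A member had a median of 4 of the 8 genes (range 2 to 7), and 165 members (68.5%) had 4 or more. Fos and Junb were seen together in 208 of 241 members, and 23 members reached the threshold with 0 Fos UMIs. Among the remaining nuclei of the library, with a median depth of 3567 UMIs, Junb was seen in 13.8% and Fos in 5.63%.

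**Figure D2:**
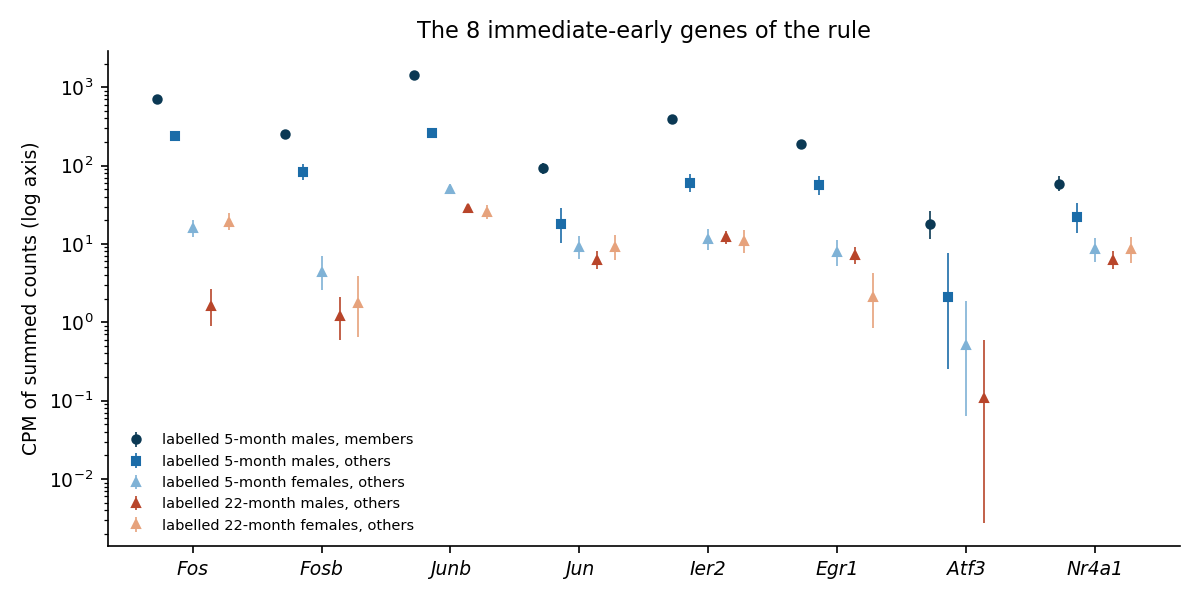
CPM of summed counts (log axis) for each immediate-early gene of the rule in members and other melanotrope-rule nuclei of the library labelled 5-month males and in other melanotrope-rule nuclei of the remaining libraries; bars are exact Poisson 95% intervals. Members are highest for all 8 genes because they were chosen on them, the others of the same library lie above the remaining libraries for every gene, for Jun and Atf3 with intervals that overlap some of theirs, and Atf3 in the library labelled 22-month females had no UMI and is not drawn.

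The other melanotrope-rule nuclei of the library labelled 5-month males, below the threshold, were also high. Their 8 genes summed to 742 CPM (689 to 799), against 108 CPM in the library labelled 5-month females, 63.6 CPM in that labelled 22-month males and 77.7 CPM in that labelled 22-month females. Members reached 3136 CPM (3046 to 3228). Nuclei outside the melanotrope rule stood at 327 CPM in the library labelled 5-month males and at 47.0 to 51.5 CPM in the rest.

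High immediate-early counts in this library were not limited to melanotropes. With nuclei gated by at least 3 markers of a type (2 for corticotropes, and Ghrhr UMIs for somatotropes), 127 of 240 gonadotrope-gate nuclei (52.9%, 46.4% to 59.4%) had 10 or more UMIs of the 8 genes, an interval that overlaps that of melanotrope-rule nuclei. The corticotrope gate had 48 of 158 (30.4%), the fibroblast and mural gate 17 of 79 (21.5%), the stem gate 15 of 170 (8.82%) and the macrophage gate 5 of 63 (7.94%). The somatotrope gate had 10 of 866 (1.15%), although its median depth of 5173.5 UMIs exceeded the 4404.5 UMIs of melanotrope-rule nuclei, and the endothelial gate 0 of 66, which allows a share of up to 4.55% by 3 counts of the total and 5.44% by the exact interval. After thinning every nucleus to 3000 UMIs and asking for 5, the shares were 62.2% in melanotrope-rule nuclei (70 of 438 too shallow to enter), 52.9% in the gonadotrope gate, 41.0% in the corticotrope gate and 0.878% in the somatotrope gate. In the other libraries no gate exceeded 2.11% at 10 or more UMIs without thinning, or 4.76% (2 of 42 endothelial-gate nuclei) after thinning.

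**Figure D3:**
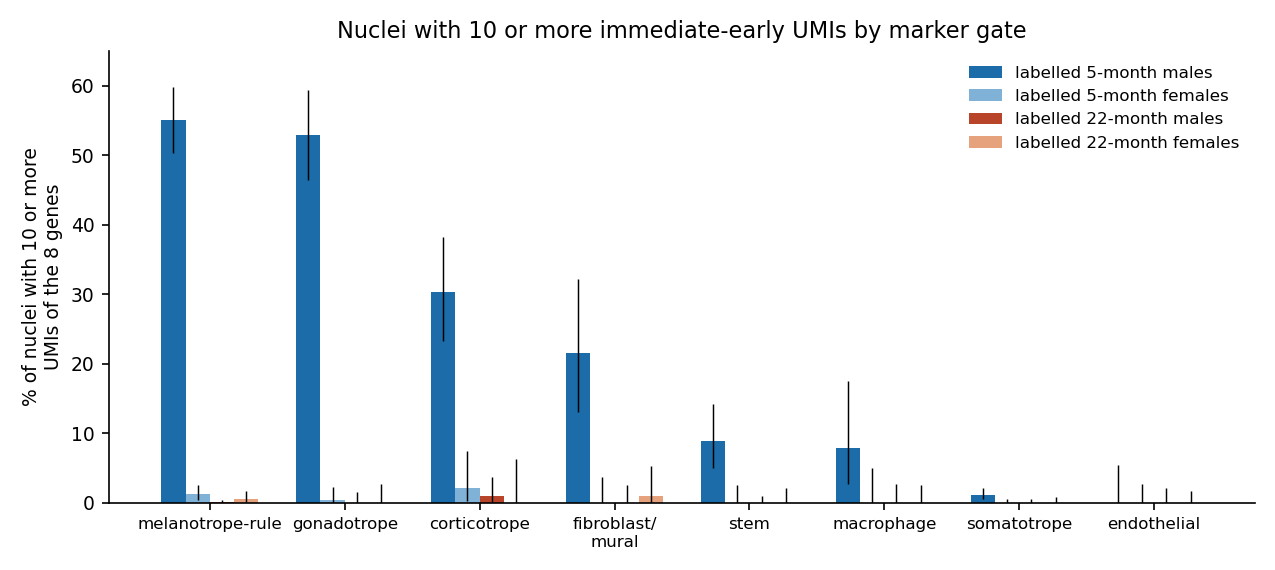
Percent of nuclei with 10 or more UMIs of the 8 immediate-early genes (y axis) in melanotrope-rule nuclei and 7 marker gates (x axis), for each library; bars are exact binomial 95% intervals. In the library labelled 5-month males melanotrope-rule and gonadotrope-gate nuclei stand at 55.0% and 52.9%, the somatotrope gate at 1.15%, and the other libraries stay at or below 2.11% in every gate.

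Within the library labelled 5-month males, the 241 members were set against its 197 other melanotrope-rule nuclei over all genes outside the rule. Only 1 library held 20 or more members, so there is no test, and differences are log2 ratios of CPM with exact binomial 95% intervals. Of 9703 genes with at least 20 UMIs on the higher side, 176 (1.81%) were 2-fold or more higher in members and 56 (0.577%) 2-fold or more lower, and 97.6% lay within 2-fold. The balance of higher to lower genes depended on the threshold: it was 149 to 312 with the threshold relative to depth and 83 to 262 with 20 or more UMIs. Summed UMIs were 1465712 in members and 952269 in the others, 1089646 and 1328335 with the relative threshold, and 690548 and 1727433 with 20 or more. Each time the side with the larger sum had more genes. The part of these sums in the balance was not tested. Because the filter reads the higher side, sparse genes pass it more easily when they differ. Named below are the 13 higher and 3 lower genes that kept a 2-fold difference in a depth window, without Scrublet calls, without the deepest 5% of nuclei and with the threshold relative to depth, and whose interval lay beyond 0.5 on the log2 scale.

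Further immediate-early genes were among the 13 higher genes. Arc, whose product acts at synapses and whose transcript marks recent activity in neurons, had 27 UMIs in 18 members and 2 in the others, a CPM ratio of 8.77 with an interval of 2.20 to 76.1. Npas4, a calcium-induced transcription factor, had 22 against 3 UMIs (ratio 4.76, 1.43 to 24.9). Both were sparse, and in the other 3 libraries their summed UMIs in other melanotrope-rule nuclei were at most 10 and 14 per library.

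The list of 35 other immediate-early genes had 17 with at least 20 UMIs on the higher side, 3 of them 2-fold or more higher (Arc, Npas4 and Egr4, at a log2 ratio of 1.70) and 0 lower. Over all 9703 genes 1.81% were 2-fold or more higher and 0.577% lower, a background for the lists below as well. Arc and Npas4 reached 20 UMIs only in members, so the filter favoured a higher value there. The same limit holds for H1fx, Hist2h2bb, Parp1, Hspb1, Wdr1, Gm26759 and Col25a1, named as higher below. It also holds for Crhr1, Gabrg3, Sox2 and Gnrhr in the later lists. Of the genes named as lower, 9630014M24Rik and Fbxl18 reached 20 UMIs only in the others. The median log2 ratio of the 17 genes was 0.52, against 0.04 over all 9703 genes. The abundant members of the list differed by less than 2-fold but with narrow intervals. Btg2, an antiproliferative gene, had 1728 UMIs in members and 604 in the others, 1179 and 634 CPM (log2 ratio 0.89, 0.76 to 1.03). Nr4a2, a relative of Nr4a1, stood at 240 and 129 CPM (0.89, 0.59 to 1.20), and Jund, an AP-1 subunit, at 324 and 185 CPM (0.81, 0.56 to 1.07). Fosl2 (0.63), Ier5 (0.44) and Mcl1 (0.31) had intervals that included 0.

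Those genes followed the number of immediate-early UMIs below the threshold too. Over nuclei with 0, 1 to 2, 3 to 9, 10 to 19 and 20 or more UMIs of the 8 genes, Btg2 stood at 138, 525, 903, 1178 and 1180 CPM. In the other melanotrope-rule nuclei it stood at 140 CPM in the library labelled 5-month females, at 113 CPM in that labelled 22-month males and at 134 CPM in that labelled 22-month females. The 63 nuclei without an immediate-early UMI thus lay within counting error of the other libraries (97.8 to 188 CPM), and those with 3 or more lay far above them. Nr4a2 went from 52.9 to 262 CPM across the same bins and Jund from 77.6 to 335 CPM. The 35 genes of the list, these included, together went from 504 to 2229 CPM, against 455 to 498 CPM in the other libraries. Btg2 alone made up 138 CPM of the first sum and 1180 CPM of the second. Median depth was 3921, 3570.5, 3994, 4552 and 5341 UMIs over these bins, and the part of depth in the pattern was not tested; CPM are relative to each bin's total.

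**Figure D4:**
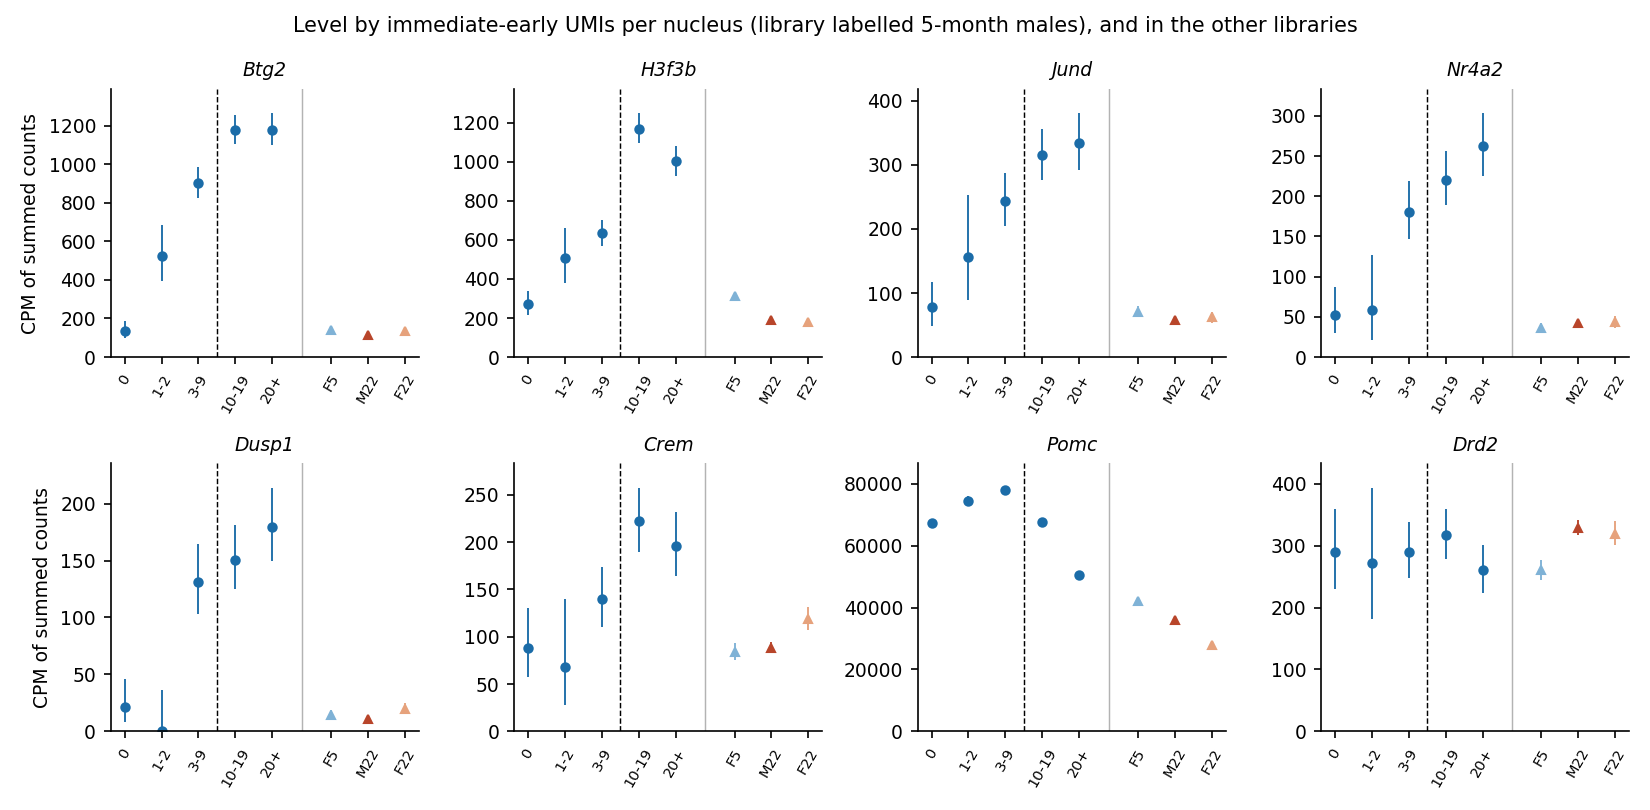
CPM of summed counts (y axis) by the number of immediate-early UMIs in a nucleus of the library labelled 5-month males (circles) and in other melanotrope-rule nuclei of the libraries labelled 5-month females (F5), 22-month males (M22) and 22-month females (F22) (triangles); bars are exact Poisson 95% intervals and the dashed line is the threshold of 10. Btg2 is at 138 CPM in the bin of 0 and at 1180 CPM in that of 20 or more, H3f3b peaks at 1170 CPM in the 10 to 19 bin, and Drd2 stays between 261 and 317 CPM.

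H3f3b, 1 of the genes for the replacement histone H3.3, had the most UMIs of the named genes. It had 1600 UMIs in members, in 204 of 241 nuclei, against 488 in the others, 1092 and 512 CPM (log2 ratio 1.09, 0.94 to 1.24). It stood at 313 CPM in the library labelled 5-month females, at 192 CPM in that labelled 22-month males and at 180 CPM in that labelled 22-month females, and at 238 CPM in the remaining nuclei of its own library. Without Scrublet calls the log2 ratio was 1.46, and in the depth window 1.41; against nuclei with fewer than 20 immediate-early UMIs, nuclei with 20 or more gave 0.31. Other chromatin genes among the named ones were sparse: H1fx, a linker histone, had 28 against 4 UMIs, Hist2h2bb, an H2B gene, 41 against 8, and Parp1, the DNA damage sensor, 47 against 10.

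Of 20 feedback genes 9 had enough UMIs, 1 of them was 2-fold or more higher, Rgs2, a regulator of G-protein signalling (86 against 20 UMIs, log2 ratio 1.48, 0.77 to 2.26), and 0 were lower. Its level was 0 UMIs in nuclei without an immediate-early UMI and 69.5 CPM in those with 20 or more. Dusp1, a phosphatase of MAP kinases, stood at 164 and 84.0 CPM (0.97, 0.60 to 1.35), and at 10.4 to 19.6 CPM in the other libraries. Zfp36l2, which promotes decay of mRNA, was at 0.997 (0.37 to 1.67) and Socs3, a suppressor of cytokine signalling, at 0.64 (0.03 to 1.29). The list's median was 0.64, but 0.13 in the depth window and 0.16 without Scrublet calls.

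The list of cAMP and CREB-linked genes had 18 of 23 genes with enough UMIs, 1 (Rgs2, also in the feedback list) 2-fold or more higher and 0 lower, with a median log2 ratio of 0.34. Crem, an inducible member of the CREB family, stood at 209 and 117 CPM (0.85, 0.53 to 1.17), and Per1, a clock gene with a CREB-responsive promoter, at 51.2 and 26.3 CPM (0.96, 0.29 to 1.68). With the threshold relative to depth Crem was at 0.80 and Per1 at 0.40. Sik1, a CREB-induced kinase gene, was at -0.01 (-0.68 to 0.68) and Pde10a, a phosphodiesterase, at -0.19 (-0.30 to -0.08).

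The stress lists differed little. Of 16 heat-shock genes, 12 had enough UMIs and 1, Hspb1, the small heat-shock protein, was 2-fold or more higher (57 against 10 UMIs, log2 ratio 1.89, 0.91 to 3.02), while Hspa8, a constitutive chaperone, was at 0.37 and Dnajb4, a co-chaperone, at -0.53. The list's median was 0.22. None of 19 measured unfolded-protein genes differed by 2-fold (median 0.05), with Hspa5, the lumenal chaperone BiP, at -0.06. Among all 9703 genes 97.6% lay within 2-fold as well. Ppp1r15a, which helps end the phosphorylation of eIF2-alpha and belonged to no list, had 77 against 21 UMIs (1.25, 0.54 to 2.02).

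The genes of the secretory program showed no 2-fold difference in prohormone processing. The 11 measured genes of 12 had a median of 0.14, and all lay within 2-fold, as did 97.6% of all 9703 genes. Pomc stood at 59700 CPM in members and 74469 CPM in the others (log2 ratio -0.32, -0.33 to -0.30). With the threshold relative to depth it was at +0.36. It was negative in every other setting, from -0.50 with 20 or more UMIs to -0.22 in the depth window. The reason for the reversal was not tested. Over the bins of immediate-early UMIs used above, Pomc stood at 67333, 74432, 78051, 67728 and 50689 CPM. The prohormone convertase Pcsk2 was at -0.46 (-0.55 to -0.38; 0.03 with the relative threshold) and Pcsk1, the other convertase, at 0.84 (0.24 to 1.47; 0.19 with the relative threshold and in the depth window). Chga and Chgb, granins of the secretory granule, were at 0.00 and 0.25.

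Of 35 genes for receptors and release, 29 were measured, 2 were 2-fold or more higher and 0 lower, with a median of 0.01. The dopamine receptor Drd2 stood at 291 and 288 CPM (0.01, -0.21 to 0.24), and at 260 to 329 CPM in the other libraries. The CRH receptor Crhr1, which also marks corticotropes, was at 1.27 (37 against 10 UMIs). Over the settings Crhr1 ranged from 0.37 with 5 or more UMIs to 1.65 in the depth window, with 0.72 under the relative threshold. The GABA-A subunit Gabrg3 was at 1.25 (22 against 6 UMIs), which turned to -0.13 with the relative threshold. The GABA-B subunit Gabbr1 was at -0.81 (-1.38 to -0.24). Of 12 measured lineage factors, 2 were 2-fold or more higher: Sox2 (50 against 15 UMIs, 1.11) and Nr3c1, the glucocorticoid receptor (84 against 27 UMIs, 1.02), which turned to -1.31 without Scrublet calls. Tbx19, the factor for Pomc-producing cells, was at 0.06 (-0.28 to 0.40).

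**Figure D5:**
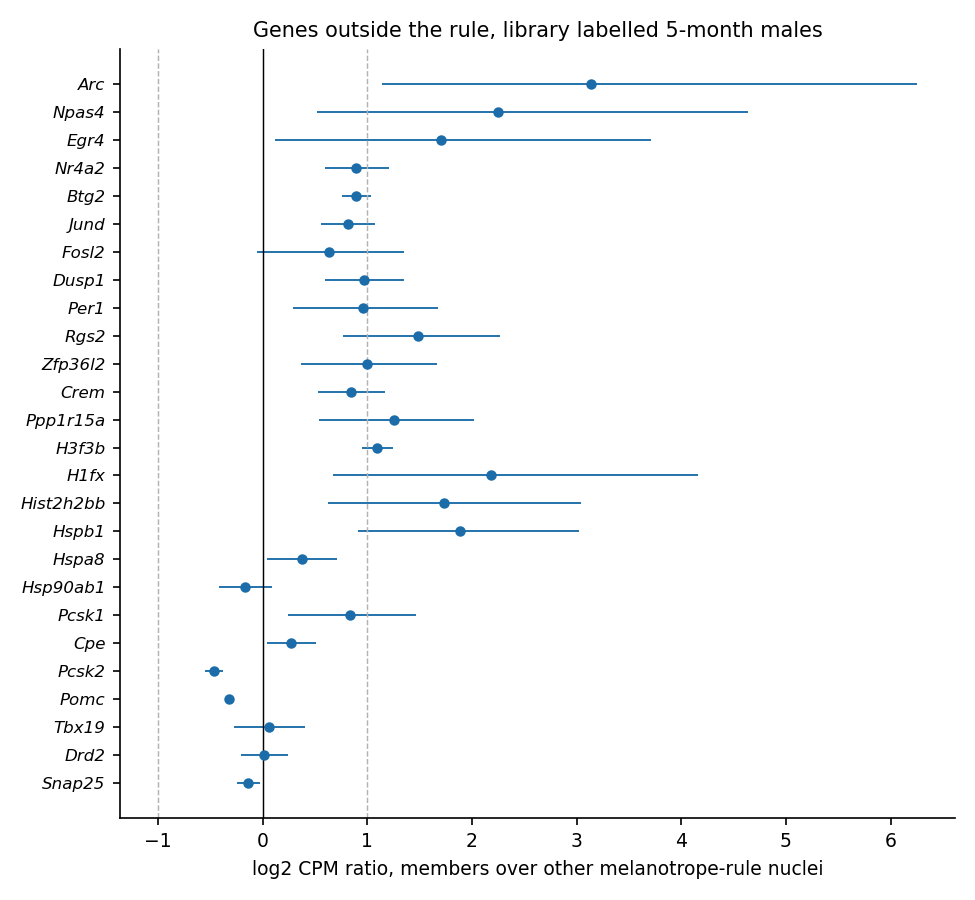
Log2 CPM ratio of members over other melanotrope-rule nuclei of the library labelled 5-month males (x axis) for 26 genes outside the rule (y axis); points are ratios, bars exact binomial 95% intervals for counting error, and dashed lines mark 2-fold. Btg2 (0.89) and H3f3b (1.09) have narrow intervals above 0, Arc (3.13) a wide one, and Drd2 (0.01) and Tbx19 (0.06) include 0.

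The remaining named genes were sparse. Higher in members were Wdr1, an actin-disassembly factor (27 against 4 UMIs), Wasf1, an actin regulator (81 against 22), the transcript Gm26759 (37 against 7) and Col25a1, a collagen that also stood on the pituicyte list (45 against 10 UMIs, 26 of them in 1 nucleus). Lower were 9630014M24Rik (7 against 23 UMIs), Fbxl18, an F-box gene (9 against 20), and Gm36279 (26 against 46), with log2 ratios of -2.34, -1.77 and -1.45.

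Transcripts of other cell types were also present in the members, and their part in these differences was not tested beyond removal of Scrublet calls. Summed over its 5 markers, the gonadotrope list stood at 73.7 CPM in members, 46.2 CPM in the others and 330 CPM in the remaining nuclei, with 1 marker at 0 in members. Gnrhr, its receptor, had 21 UMIs in 5 members and 2 in the others. The log2 ratio of Gnrhr went from 2.77 to -1.31 without Scrublet calls. With at most 2 UMIs in the others, the direction of that second ratio says little. The 4 corticotrope markers summed to 45.0, 27.3 and 100 CPM, the 7 stem markers to 107, 78.8 and 256 CPM, and the 5 pituicyte markers to 96.9, 44.1 and 110 CPM, again with 1 at 0. The 3 thyrotrope markers summed to 240, 135 and 315 CPM. Somatotrope markers, with Gh among them, stood at 63154, 57345 and 136681 CPM and the lactotrope pair at 8192, 8494 and 16632 CPM. Removal of Scrublet calls did not lower every list. The median log2 ratio of measured markers went from 0.72 to 1.02 (corticotrope), 1.11 to 1.53 (stem) and 0.96 to 1.27 (pituicyte). It went from 1.58 to -0.84 (gonadotrope), 0.81 to -0.31 (thyrotrope) and 0.14 to -1.05 (somatotrope). These medians rest on 1 to 3 genes each. The endothelial, macrophage, and fibroblast and mural lists were no higher in members (22.5, 37.5 and 32.1 CPM) than in the others (28.4, 37.8 and 41.0 CPM), with 1, 0 and 1 markers at 0 in members. Signs of cytoplasmic carry-over were level between members and others. The 23 ribosomal and housekeeping genes had a median log2 ratio of -0.01 and 7 long-lived nuclear RNAs one of -0.02. Over the bins of immediate-early UMIs the 23 genes were not level, with sums of 3117, 3716, 4715, 4150 and 3791 CPM. In other melanotrope-rule nuclei of the remaining libraries they summed to 2536 to 3471 CPM.

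The other 3 libraries, which gave only 9 members, allowed a test across libraries on nuclei with fewer immediate-early UMIs. Melanotrope-rule nuclei with 2 or more such UMIs (63 nuclei in the library labelled 5-month females, 64 in that labelled 22-month males and 29 in that labelled 22-month females, Scrublet calls removed) were compared with those with 0 or 1 (283, 841 and 271) by edgeR's quasi-likelihood test with library as a block. Among 10931 genes outside the rule 1 was higher (0.00915%) and 0 lower at an adjusted p under 0.05; 371 were higher and 249 lower at an unadjusted p under 0.05, and DESeq2 found 0 of either. The 1 gene was Pcdh7, a protocadherin (log2 difference 1.78 ± 0.32 SE, adjusted p = 0.0488; range over its alternatives 1.35e-08 to 0.9999). It lost its call with plain totals, without the block, in DESeq2, with 5 or more UMIs, in the depth window, and without the library labelled 5-month females or 22-month females. In members of the library labelled 5-month males Pcdh7 was at -0.16 (22 against 16 UMIs).

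Btg2 had a log2 difference of 0.71 ± 0.18 in this test (adjusted p = 0.382 by edgeR), Nr4a2 0.76 ± 0.22 (0.557), Jund 0.70 ± 0.20 (0.489), Dusp1 0.85 ± 0.39 (0.853) and H3f3b 0.21 ± 0.14 (0.896). None passed. For Btg2 the call depended on settings: it passed with no filter, with 3 or more UMIs, in the depth window (0.95, adjusted p = 0.000434) and without the library labelled 22-month males, and its adjusted p ranged from 9.25e-07 to 0.99997 over the alternatives. Of 14 other immediate-early genes tested 0 passed, 10 had a difference above 0, and the median was 0.45. Over all 10931 genes outside the rule 5564 had a difference above 0, and the median was 0.01. Of the 13 genes named as higher in members 8 were tested, 0 passed and 5 had a difference above 0. Nuclei on the higher side were deeper, with medians of 6291, 5429 and 6498 UMIs against 4840, 4606 and 5672.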

How the data were processed

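Per the labels, nuclei of snap-frozen glands were prepared with a 10x Genomics kit and sequenced as 3' libraries, and the build is mm10. The authors deposited raw UMI counts for 32285 genes, made with Cell Ranger 7.0.1 per the file headers; the sources used here do not say if introns were counted. Counts were used as deposited. Nuclei were summed per library and set; CPM are counts per 1000000 UMIs of a set. Intervals are 95% and cover counting error only.

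The members, gene lists and thresholds were chosen with earlier results of these data known. The planned edgeR test of members against other melanotrope-rule nuclei needs 2 libraries with 20 members; 1 had them, so no test was made. The rule for named genes (2-fold, 20 UMIs in 10 nuclei on the higher side, log2 bound of 0.5, kept in 5 settings) was set after values were seen. Lists describe counts and medians.

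The comparison in the 3 other libraries was also specified late. Its first form (3 or more against 0 to 2 UMIs, all nuclei) gave 426 genes higher and 273 lower outside the rule. Forms in a depth window and without Scrublet calls followed, the latter with 7 higher and 4 lower. The form reported was taken so that every side had 20 nuclei. It used edgeR 4.0.16 (TMM, filterByExpr, Benjamini-Hochberg, 2 residual degrees of freedom) in R 4.3.3, and DESeq2 1.42.0 as an alternative. The fit was tested on simulated data. Scanpy 1.11.5 ran Scrublet.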

Additional observations from a re-analysis of the deposited data

How the results depend on the processing

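The share of members stayed highest in the library labelled 5-month males under each setting tried: 74.0% with 5 or more UMIs, 21.0% with 20 or more and 62.2% after thinning. With 5 or more UMIs the libraries labelled 5-month females, 22-month males and 22-month females had 5.38%, 0.628% and 3.16%, and with 20 or more 0% each. With the threshold relative to depth they had 0.398%, 0% and 0%; without Scrublet calls the last 2 had 0% each, as had the library labelled 22-month males after thinning. Genes 2-fold or more higher in members numbered 584 with 5 or more UMIs and 83 with 20 or more, and genes lower 119, 262 and, with the relative threshold, 312. With 20 or more UMIs Col25a1 (-0.68) and Hist2h2bb (-0.47) turned negative. Gnrhr turned to -1.46 in the depth window and -1.31 without Scrublet calls, both with at most 2 UMIs in the others. With the relative threshold Gnrhr was at -0.35. Of 112 pairs of a named gene and a setting, 102 kept direction and stayed within the counting interval, 8 moved and 2 reversed; in 4 of the 7 settings the choice of these genes required the direction to hold, so the tally is no measure of stability. The causes were not tested.

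In the 3 other libraries, genes higher and lower numbered 35 and 9 with no filter, 0 and 0 with plain totals, 0 and 0 with no replicate block, 0 and 0 by DESeq2, 7 and 4 with 3 or more UMIs, 4 and 0 with 5 or more, 3 and 1 in the depth window, 508 and 319 with Scrublet calls, and 426 and 273 with these calls and 3 or more UMIs. Leaving out each library gave 0 to 85 higher and 0 to 15 lower: 0 and 0 without 5-month females, 85 and 15 without 22-month males, 9 and 2 without 22-month females.

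Settings that need a test (DESeq2, plain totals, no filter, no block, leaving out each library) and the comparison of members between libraries were not run on members, which reached 20 in 1 library. No paired analysis of members was possible because only 1 library held 20 or more of them. Sparse genes with under 100 UMIs carry wide intervals, and the 9 members outside the library labelled 5-month males are too few to describe.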
